A study of Mus musculus and Homo sapiens with 22 samples.

Results

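PROX1 is a homeodomain transcription factor of hepatocytes. The peaks described here are places where endogenous PROX1 was mapped in the introns of mouse liver genes but where overexpressed PROX1 was not mapped in mouse fibroblasts. A liver peak was taken when its summit lay more than 1 kb from every annotated transcription start site (TSS), inside a GENCODE M21 gene but in no exon of any gene, and when the peak overlapped no MEF peak by even 1 bp. This left 21945 of 50159 liver peaks (43.8%). The members were thus chosen by their presence in one list, their absence from another and their position. Strength, width, position and host gene of these peaks are given as a description, with no test. Tests were run on the DNA sequence at the summits, which the choice did not use.

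The map came from CUT&RUN, in which an antibody tethers a nuclease to chromatin so that DNA near the bound protein is cut free and sequenced. Liver nuclei, labelled as hepatocyte nuclei, were isolated by lysis from untreated wild-type C57BL/6J mice of 2 to 3 months, and were profiled with a PROX1 antibody (n = 5) or rabbit IgG (n = 5). Mouse embryonic fibroblasts (MEFs) came from wild-type C57BL/6N E13.5 embryos, carried rtTA and tetO-FLAG-mmProx1 lentivirus, received 2 µg/ml doxycycline for 2 days, and were profiled with a FLAG antibody (n = 3) or IgG (n = 3). Hep3B, a human hepatocellular carcinoma line, carried pLIX-Puro-hsPROX1 after puromycin selection, received the same doxycycline for 2 days, and was profiled with FLAG antibody (n = 3) or IgG (n = 3). Liver and MEFs differ in tissue, in antibody and in the source of PROX1 at once, so the effects of these cannot be told apart. The MEFs and Hep3B cells hold added PROX1 at a level set by a lentiviral promoter, and lysis does not sort nuclei by cell type.

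Each deposited list pools the antibody samples of its group. Values per sample, sequencing depth and spread between animals are therefore not part of any number here, and intervals and p-values cover counting over regions. There were 40531 MEF and 14369 Hep3B peaks. Summit −log10 p values had a median of 12.2 over the liver list, 5.96 over the MEF list and 6.44 over the Hep3B list, each on its own background model. Whether sites of the liver-only class fell below the reach of the MEF list was not tested.

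Introns hold many of the enhancers of mammalian genes. In hepatocytes, such enhancers are bound together by nuclear receptors such as HNF4A, which recognise AGGTCA-like half-sites singly or in pairs, and by FOXA, C/EBP, HNF1 and HNF6 proteins, which each read a sequence of their own. A direct repeat of half-sites with 1 base between them is called DR1, and inverted repeats with 0 or 1 base between them are called IR0 and IR1. The sequences below are shown because they are the 5 strongest intronic liver-only peaks by summit −log10 p. Each gives the summit base and 50 bases on each side in GRCm38.p6, plus strand. Capitals mark exact matches, on either strand, to AGGTCA, to the HNF4 site CAAAGTCCA, to the FOXA site TGTTTAC, to the C/EBP site TTGCNNAA or to the HNF6 cores ATCGAT and ATTGAT, and matches with up to 2 mismatches to the HNF1 palindrome GTTAATNATTAAC. These 7 motifs are called hepatocyte-factor motifs from here on.
Sfi1 (chr11:3161418-3161518): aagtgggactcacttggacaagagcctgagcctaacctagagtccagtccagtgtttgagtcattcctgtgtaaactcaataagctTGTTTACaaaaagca
Ugt1a cluster (chr1:88213765-88213865): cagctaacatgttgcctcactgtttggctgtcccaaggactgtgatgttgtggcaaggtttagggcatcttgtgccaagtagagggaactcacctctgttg
AC169509.1 and Gm31814 (chr16:24225204-24225304): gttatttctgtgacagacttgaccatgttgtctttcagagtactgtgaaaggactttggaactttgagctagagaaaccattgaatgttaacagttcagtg
Prkce (chr17:86523483-86523583): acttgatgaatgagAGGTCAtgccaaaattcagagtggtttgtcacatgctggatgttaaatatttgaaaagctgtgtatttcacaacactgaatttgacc
Daam1 (chr12:71836452-71836552): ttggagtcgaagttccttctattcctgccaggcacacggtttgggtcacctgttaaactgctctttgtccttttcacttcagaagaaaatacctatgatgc

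The window in Sfi1 held a FOXA match and that in Prkce a half-site, while the other 3 held none of the 7. The Sfi1 peak (intron 12 of 30, chr11:3161281-3161591) had the highest −log10 p, 38.3, and was only 311 bp wide. Sfi1 encodes a centrosomal protein. Within 30 kb of this summit the MEF list held 10 peaks and the liver list 2, and the 32 bases at the summit occurred once in the reference genome. Copies missing from the reference cannot be counted in this way. The second, at −log10 p 34.6, lay in an intron shared by 9 Ugt1a gene models (chr1:88212573-88214234), whose enzymes conjugate bilirubin and drugs with glucuronic acid. It was followed by a peak in the unnamed models AC169509.1 and Gm31814 at 32, which was 5944 bp wide. Next came peaks in Prkce (a protein kinase C; intron 12 of 16, 31.1) and Daam1 (a formin that organises actin; intron 1 of 24, 29.8). The remaining 5 of the 10 strongest were in Rbbp4 (29.2), Hectd2os (29.2), Bik (29.1), 4930534D22Rik (29) and Kat2b (28.7). Rbbp4 encodes a histone-binding subunit of several chromatin complexes and Kat2b a histone acetyltransferase. These 10 held ranks 3 to 28 of the whole liver list.

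A further set of windows is shown because each is the strongest intronic liver-only peak with one of the 5 motifs whose odds against control windows were highest (below). Here capitals mark that motif alone. In the half-site pairs, 1 mismatch over the pair was allowed.
HNF4 site, Gm3898 (chr9:43827041-43827141): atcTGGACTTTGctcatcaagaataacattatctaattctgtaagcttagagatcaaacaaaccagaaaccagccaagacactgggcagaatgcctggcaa
IR1 pair, Akr1d1 (chr6:37543039-37543139): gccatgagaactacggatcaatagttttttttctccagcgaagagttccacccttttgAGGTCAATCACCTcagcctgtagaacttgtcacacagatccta
IR0 pair, Mad1l1 (chr5:140105186-140105286): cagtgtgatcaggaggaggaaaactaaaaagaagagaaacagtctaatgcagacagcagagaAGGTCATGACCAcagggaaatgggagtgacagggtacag
DR1 pair, Prox1os (chr1:190180995-190181095): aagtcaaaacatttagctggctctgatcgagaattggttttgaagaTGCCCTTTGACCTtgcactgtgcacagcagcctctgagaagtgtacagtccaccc
HNF1 site, 2310001H17Rik (chr6:129212602-129212702): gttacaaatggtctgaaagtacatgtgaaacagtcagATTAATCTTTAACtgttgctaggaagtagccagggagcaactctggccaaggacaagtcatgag

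The HNF4 window belongs to the lincRNA Gm3898 (intron 2 of 4, −log10 p 25.6). The IR1 window lies in intron 4 of 9 of Akr1d1 (19.3), which encodes the 5β-reductase of bile acid synthesis. IR0 was found in intron 19 of 21 of Mad1l1 (20.5), a spindle checkpoint gene. The DR1 window lies in the intron of Prox1os (25.2), the antisense neighbour of Prox1 itself. The HNF1 window belongs to the lincRNA 2310001H17Rik (24.6).

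The sequences around the summits were rich in the motifs of hepatocyte factors. A half-site AGGTCA lay within 50 bp of 18% of summits (95% Wilson interval 17.5 to 18.5) and in 5.94% of control windows of the same length, taken 1000 bp to each side where no liver peak lay (odds ratio 3.47, 95% interval 3.28 to 3.67; two-sided Fisher's exact test, p too small for double precision). These tests count regions of 1 pooled list, not animals, and neighbouring peaks are not independent, so the p-values are too small. The HNF4 site had the highest odds ratio of the 28 motifs, 16.1 (11.3 to 23.1), at 1.49% against 0.0934% (exact adjusted p = 1.57e-96). DR1 stood at 1.44% against 0.215% (6.80, 5.29 to 8.74; exact adjusted p = 6.1e-66). The HNF1 palindrome stood at 2.42% against 0.388% (6.37, 5.27 to 7.69; exact adjusted p = 4.13e-105). IR0 and IR1 both had odds ratios of 6.85, on 0.0775% and 0.155% of summits, with wide intervals of 2.30 to 20.3 and 3.17 to 14.8.

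The other hepatocyte-factor motifs had smaller odds ratios than the HNF1 palindrome. C/EBP stood at 9.66% against 4.02% (odds ratio 2.55), ATTGAT at 8.87% against 3.77% (2.48), ATCGAT at 1.04% against 0.246% (4.27) and FOXA at 3.89% against 1.38% (2.89). At least 1 of the 7 hepatocyte-factor motifs was present at 39.6% of summits and in 15% of control windows. The shares with 2 kinds were 5.29% and 0.756%, and those with 3 or more 0.232% and 0.0255%. None of the 7 lay within 50 bp of 60.4% of summits, 13260 peaks.

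The other half-site arrangements were DR0 and DR2 to DR6 and the everted pair ER6 (half-sites in opposite directions with 6 bases between them). Their odds ratios ran from 4.07 (DR4) to 5.03 (ER6). A half-site inside a pair also counts as a single half-site, and the extended half-site TCAAGGTCA (3.51) and the ROR site TAGGTCA (2.36) contain it too. The rest of the panel was nearer to 1. It held the site AGATAA of GATA factors (1.17), AP-1 TGANTCA (1.40), TEAD CATTCC (1.05), the E-box CACGTG (1.46), the CRE core TGACGT (1.23), the GC box GGGCGG (1.25), NF-Y CCAATCA (1.17), the CTCF core CCACTAG (1.39) and STAT TTCNNNGAA (1.23). In all, 26 of the 28 motifs (92.9%) were more frequent at summits at an adjusted p below 0.05, and none (0%) was less frequent. The exceptions were TEAD (exact adjusted p = 0.234) and NF-Y (exact adjusted p = 0.0514). Since nearly every motif passed, the size of the odds ratio, not the call, separates the motifs. Summit windows had a median GC content of 47.5% and control windows of 44.6%, and their centres lay in repeat-masked sequence in 11.9% and 26.6% of cases. With windows of 40 to 50% GC alone, the half-site odds ratio was 2.95, and without repeat-masked centres it was 3.25.

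**Figure D1:**
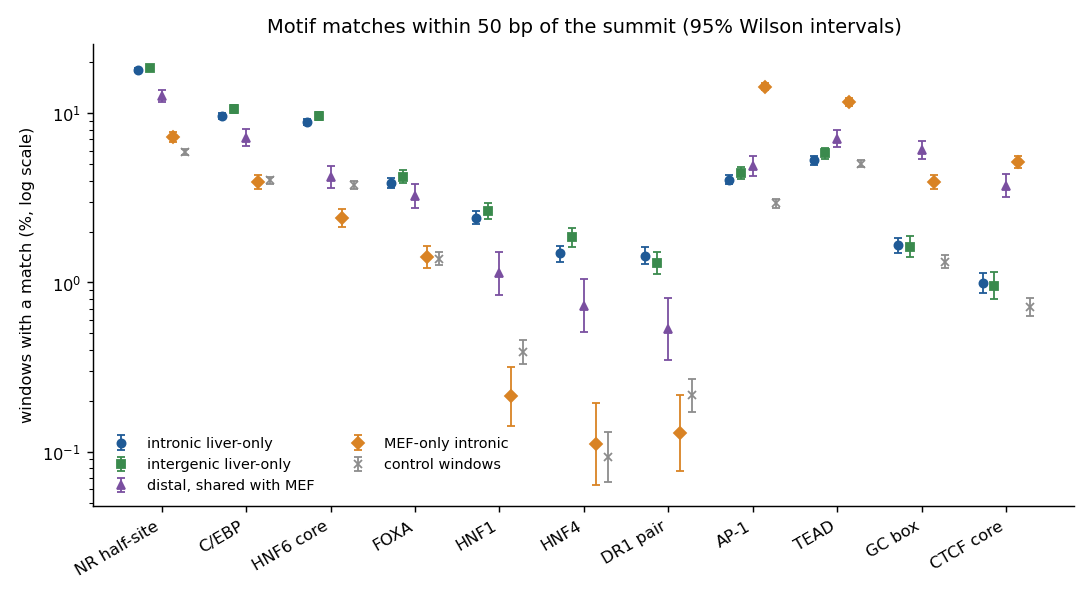
Share of windows of 50 bp on each side of the summit with a match (%, log scale) for 11 motifs at intronic liver-only peaks, intergenic liver-only peaks, distal liver peaks shared with MEFs, MEF-only intronic peaks and control windows, with 95% Wilson intervals. The 2 liver-only classes lie close together, for example 18% and 18.6% for the nuclear receptor (NR) half-site, while AP-1 and TEAD are highest at MEF-only peaks (14.4% and 11.7%).

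Except for TEAD sites, the motifs profiled had more matches near the summit than at 400 to 450 bp from it. Half-sites occurred at 23.3 per 10 kb within 25 bp of the summit and at 6.98 per 10 kb at 400 to 450 bp from it, a ratio of 3.34. HNF4 sites had a ratio of 11.4 (1.73 against 0.152 per 10 kb), HNF1 of 4.66, FOXA of 2.78, C/EBP of 2.44 and ATTGAT of 2.43. TEAD sites had a ratio of 1.01. The half-site peaked in the 10 bp just before the summit, at 28.1 matches per 1000 peaks. HNF1 and ATTGAT matches were lower in the 10 bp just after the summit (1.82 and 8.02 per 1000 peaks) than 50 to 60 bp after it (3.46 and 9.52), a description of 40 and 176 against 76 and 209 matches.

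**Figure D2:**
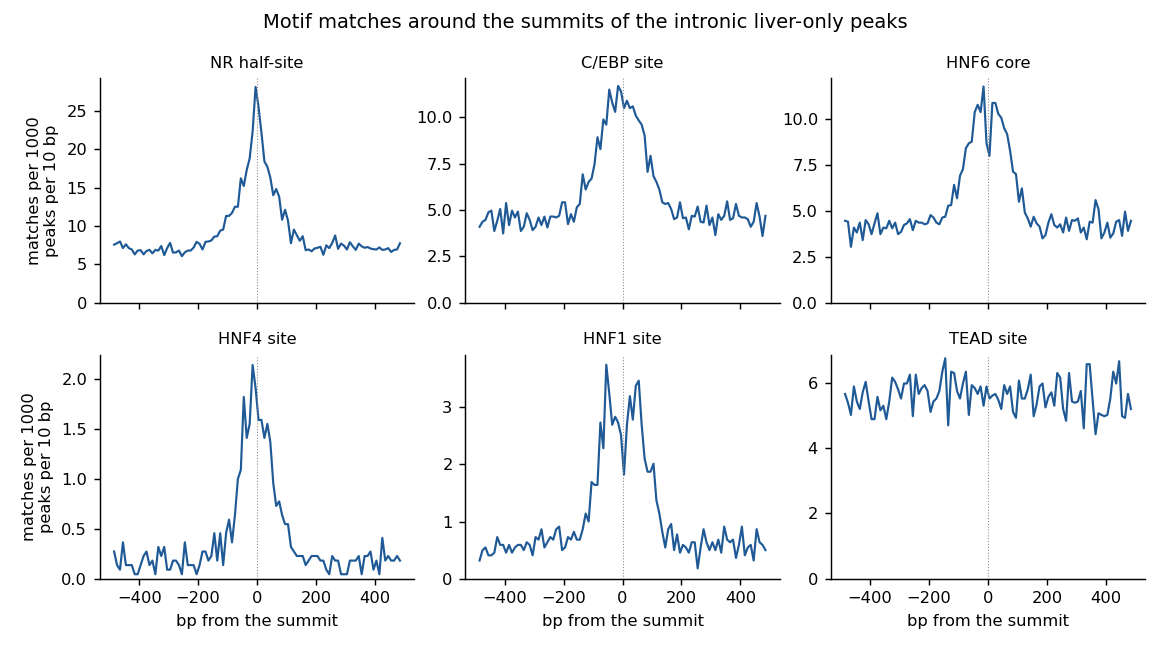
Matches per 1000 intronic liver-only peaks in bins of 10 bp (vertical axes, each with its own scale) against distance from the summit in bp, for 6 motifs. Half-sites peak at 28.1 next to the summit, whereas TEAD sites are flat.

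Motif shares moved with peak strength for some motifs, a description with no test. From the lowest to the highest quartile class of summit −log10 p, the share with a half-site was 16.7%, 18.6%, 18.2% and 18.3%. For the HNF4 site it was 0.857%, 1.59%, 1.75% and 1.75%, and for ATCGAT 0.638%, 1.08%, 1.17% and 1.29%. HNF1 went from 2.72% to 2.19% over the same classes. The E-box stood at 2.13%, 1.68%, 2.01% and 1.17%, and the CTCF core at 1.15%, 1.15%, 0.984% and 0.693%. At least 1 of the 7 motifs was found in 37.2% of the lowest and 40.9% of the highest class.

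The sequence was then compared with that of 3 other classes of the same liver list, the intergenic and promoter liver-only peaks and the distal peaks shared with MEFs. Of the 3 classes compared, intergenic liver-only peaks, 12119 in number, had the fewest motifs that differed. Their half-site share was 18.6% (odds ratio for intronic against intergenic 0.96, 95% interval 0.907 to 1.02; Fisher's exact test, adjusted p = 0.34). With windows of 100 bp on each side it was less frequent in introns (0.934, exact adjusted p = 0.0212). Of the 28 motifs, 1 (3.57%) was more frequent in introns. It was the E-box CACGTG, a site of basic helix-loop-helix factors such as CLOCK, USF and MYC, at 1.75% against 1.2% (1.46, 1.2 to 1.76; exact adjusted p = 0.00271). Another 2 (7.14%) were less frequent, C/EBP (9.66% against 10.6%, exact adjusted p = 0.0436) and ATCGAT (1.04% against 1.39%, exact adjusted p = 0.0436). HNF4 stood at 1.49% against 1.86% (exact adjusted p = 0.0639). At least 1 of the 7 hepatocyte-factor motifs was found at 39.6% of intronic and 41.8% of intergenic liver-only summits. The shares with 2 kinds were 5.29% and 6.3%, and with 3 or more 0.232% and 0.462%, not tested. Of 8186 7-mers compared between these classes by exact binomial tests, 0 (0%) passed an adjusted p below 0.01, and 458 (5.59%) had an unadjusted p below 0.05.

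Promoter peaks differed more. Against the 4717 liver-only peaks within 1 kb of a TSS, 4 motifs (14.3%) were more frequent in the intronic class, namely ATTGAT (8.87% against 6.30%), C/EBP, GATA and the half-site (18% against 16.0%, exact adjusted p = 0.00823). One, the GC box, a site of promoter factors of the SP family, was less frequent (3.57% of the panel), at 1.66% against 4.52% (odds ratio 0.358, exact adjusted p = 5.49e-27). The largest differences were from the 3975 distal liver peaks that MEFs shared. There 12 motifs (42.9%) were more frequent in the intronic liver-only class and 4 (14.3%) less frequent. ATTGAT stood at 8.87% against 4.23% (2.21), HNF1 at 2.42% against 1.13% (2.17), DR1 at 1.44% against 0.528% (2.76) and the half-site at 18% against 12.6% (1.51, exact adjusted p = 1.93e-16). The lower ones were the CTCF core, the site of a chromatin loop anchor (0.993% against 3.72%), the GC box (1.66% against 6.04%), TEAD (5.26% against 7.09%) and AP-1 (4.06% against 4.91%, exact adjusted p = 0.0278).

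A consensus written for PROX1 itself was also counted. Whole peaks, widened by 20 bp, were searched for it in either orientation, allowing 2 mismatches. It was found in 13.1% of the intronic liver-only peaks (95% interval 12.7 to 13.6) and in 11.3% of control regions (odds ratio 1.18, 1.12 to 1.25; Fisher's exact test p = 3.02e-10). The control regions that remained after those overlapping a liver peak were dropped were narrower, with a median of 491 bp against 532 bp. When the comparison was held to the 12731 peaks that kept both control regions, with equal widths, the odds ratio was 1.08 (exact p = 0.0332). A full match was found in 4 peaks and a best match with 1 mismatch in 159. The share did not differ from intergenic liver-only peaks beyond its error (13.1%, odds ratio 1.01, 0.942 to 1.07). It was below that of distal shared peaks (17.5%, 0.714, exact p = 1.41e-12), whose median searched width was 612 bp. The paper mapped a PROX1 motif from the CIS-BP collection. That motif was not searched here, so these counts do not give its frequency.

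Short words were counted without a preset motif in the 51 bases around each summit. Of 8192 7-mers, 1369 (16.7%) were more frequent and 1511 (18.4%) less frequent at summits than in control windows (exact binomial tests, adjusted p below 0.01; occurrences are not independent). Among those with at least 200 occurrences, the highest ratio was that of CAAAGTC (5.01), followed by AAGGTCA (4.85), AGGTCAA (4.55) and GGTCAAA (4.47). ATTGATC came next, at 4.29. Of the first 20 words, 6 held GGTCA and 2 held ATTGAT. Another 6 held TTGGC or TGCCAA, which are letters of the site that NFI factors read (CTTGGCA at 4.19, for example). The lowest ratios belonged to AT runs, led by ATATATA with 8 occurrences at summits and 1551 in control windows, and to CCCCCCC (0.0768).

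The peaks themselves were of ordinary size for the liver list. Their median width was 492 bp (quartiles 338 and 759), their median −log10 p 12.4 (10.3 and 15.3) and the highest 38.3. Over all liver peaks these medians were 504 bp and 12.2. Among the 1000 strongest liver peaks 44.6% were intronic and liver-only, near the 43.8% of the whole list. MEF overlap was rarer inside introns than at promoters. Of 24107 intronic liver peaks away from a TSS, 8.97% overlapped a MEF peak, against 53.8% of 10217 promoter peaks, 11.5% of intergenic and 11.3% of exonic peaks. The nearest MEF peak lay a median of 11631 bp away, and 7.14% of the intronic liver-only peaks had one within 1 kb. Many stood in clusters: another liver peak lay within 500 bp of 29.4%, so neighbouring peaks are not independent sites.

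At the edge of the TSS limit, the nearest peak inside it stood 1001 bp from a TSS, in Gm42626 (−log10 p 14.5), and the nearest outside at 1000 bp (18.3). There were 277 intronic liver-only peaks from 1001 to 1100 bp and 417 liver-only promoter peaks from 901 to 1000 bp. At the MEF limit, a peak in Prdm16 (18.4) missed a MEF peak by 1 bp, and one left out overlapped a MEF peak by 1 bp (16.4). Each named peak is a single case, and few peaks sat at the MEF limit. Of the 21945 intronic liver-only peaks, 57 lay within 50 bp of a MEF peak. Of the 2162 intronic liver peaks that MEFs shared, 32 overlapped a MEF peak by less than 50 bp, and the median overlap was 386 bp. At the TSS limit, the promoter count was not limited to introns, so the counts on each side cannot be compared directly.

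Density fell with distance from the TSS. Per Mb of intron space (sequence in a gene, in no exon and over 1 kb from every TSS), there were 35.0 peaks at 1 to 2 kb, 26.4 at 5 to 10 kb, 16.1 at 20 to 50 kb and 6.32 beyond 100 kb. MEF-only intronic peaks, placed by the same rule and overlapping no liver peak, fell from 18.1 to 3.88 per Mb over the same range. The ratio of the classes went from 1.94 at 1 to 2 kb to 2.29 at 5 to 10 kb and 1.34 at 50 to 100 kb, and stood at 1.63 beyond 100 kb. The median distance was 8076 bp, and 378 peaks lay over 100 kb from a TSS.

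**Figure D3:**
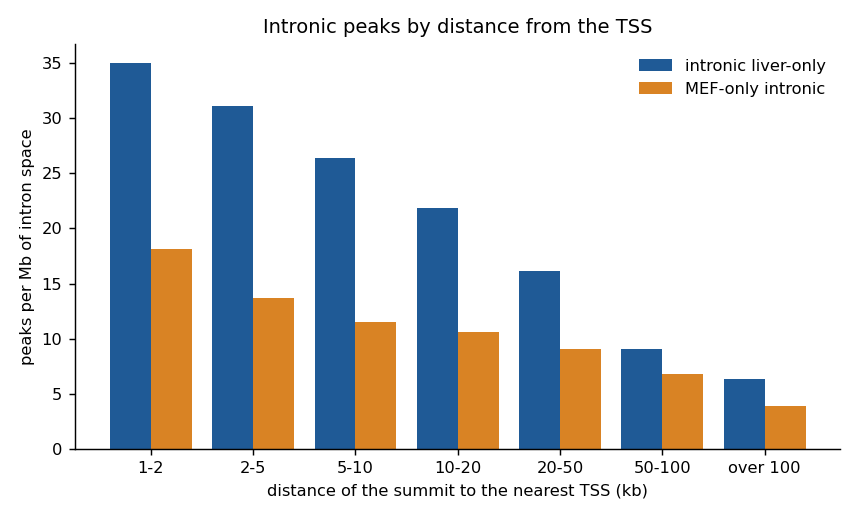
Peaks per Mb of intron space (vertical axis) by distance of the summit from the nearest TSS in kb, for 21945 intronic liver-only and 10840 MEF-only intronic peaks. Both classes thin out with distance, from 35.0 to 6.32 and from 18.1 to 3.88 per Mb.

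Most hosts were protein-coding. Of the peaks, 20021 (91.2%) lay in an intron of a protein-coding gene, 1167 had a lincRNA and 361 an antisense gene as host. First introns, counted along the merged exons of a gene, took 26.7% of the placements and 18% of the space, or 3.45 peaks per 100 kb. Middle introns had 2.12 and last introns 1.59 per 100 kb. Of 19252 protein-coding genes with intron space, 5233 (27.2%) held at least 1 intronic liver-only peak and 4558 (23.7%) at least 1 MEF-only intronic peak. Both kinds were found in 2200 genes, 42.0% of the former and 48.3% of the latter. The peaks were unevenly spread. There were 1927 genes with 1 peak and 475 with 10 or more, and the latter held 35.5% of all peaks.

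Genes with a PROX1 peak at their promoter in liver held more intronic ones. Among genes with 30 to 100 kb of intron space, 28.9% of those without a liver promoter peak held an intronic liver-only peak. The share was 78.9% with a liver-only promoter peak and 76.3% with one shared with MEFs. For MEF-only intronic peaks the shares were 38.4%, 41.9% and 41.7%. In genes with 1 to 10 kb of space they were 4.38%, 37.0% and 23.8% for liver-only peaks. The 3 promoter classes come from the same list as the peaks, so this is a description.

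Several long genes of hepatocyte regulators were among those with the most peaks. Rora (chr9:68653786-69388246), a nuclear receptor that binds a single half-site, held 50, or 7.01 per 100 kb, with −log10 p from 7.69 to 24.6. Pard3, a cell polarity gene, held 47. Nfia (chr4:97772734-98118874), an NFI family factor, held 46, at 14 per 100 kb, and no MEF-only peak. Rbm47 (chr5:66016549-66173118), an RNA-binding protein that serves apolipoprotein B editing, held 44 in 131 kb, or 33.6 per 100 kb. Zbtb20, a repressor of alpha-fetoprotein, held 43, Ptprg, a receptor phosphatase, 42, and Thrb (chr14:17660261-18038090), the thyroid hormone receptor beta, 41. Thrb had no MEF-only intronic peak, Rora 2, Rbm47 1 and Zbtb20 10. The other 3 of the first 10 were Gm20388 (172), Fgfr2 (63) and Gm37240 (44), whose M21 models span 71, 29 and 6 other protein-coding genes, so that their peaks cannot be assigned to one gene.

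The position of the peaks differed between these genes. In Rora, of 734 kb, the first stood 34.6 kb from the 5′ end and the median at 589 kb. In Nfia, of 346 kb, the median was 71.5 kb, and 25 of its 46 peaks lay in intron 3. In Thrb, 23 of 41 lay in intron 3. In Insr and Lipc, 22 of 27 and 27 of 28 peaks lay in intron 2. These counts were not scaled to the length of the intron. Half-sites were found at 6 of the Rora, 5 of the Nfia and 9 of the Thrb peaks, and at least 1 of the 7 hepatocyte-factor motifs at 16, 13 and 21. Over all intronic liver-only peaks the shares were 18% and 39.6%. Rora and Nfia were below both shares and Thrb was above both, but these differences rest on few peaks per gene and were not tested.

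**Figure D4:**
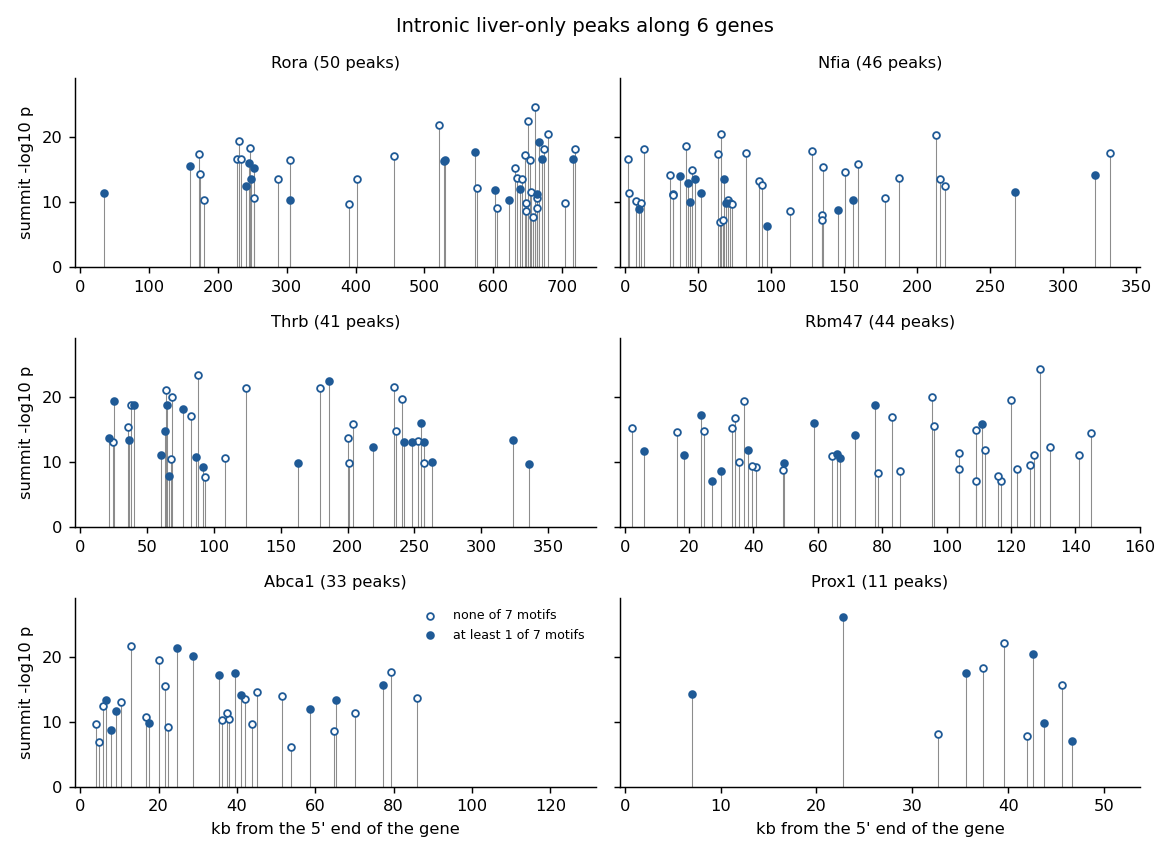
Summit −log10 p (vertical axis) of the intronic liver-only peaks of 6 genes against distance from the gene's 5′ end in kb; filled points have at least 1 of the 7 hepatocyte-factor motifs within 50 bp. Rora holds 50 peaks with a median position of 589 kb, and Prox1 holds 11.

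By density, short genes led. Among genes with at least 4 peaks, Fam210b held 6 in 5.85 kb of intron space, or 103 per 100 kb. It was followed by Cpn2 (89.1), a subunit of the plasma carboxypeptidase N, Pgrmc1 (73.7), a haem-binding membrane protein, Nfyb (72.7), a subunit of NF-Y, and Anks4b (70.9). The next were Cfap20 (64), Cyp2f2 (62.8), a cytochrome P450, Eppk1 (62.7), Ppil1 (61.4) and Tmbim6 (61.0). None of these 10 held a MEF-only intronic peak, but among all genes with 1 to 10 kb of intron space only 6.7% did. Each of the 10 held 4 to 6 peaks, so the densities rest on few sites.

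PROX1's own locus was denser in peaks than the 2.32 per 100 kb pooled over protein-coding genes. Prox1 was among 475 protein-coding genes with 10 or more peaks, and its density was below those of the 10 densest genes above. Prox1 (chr1:190118035-190170714, minus strand) held 11 peaks, or 26.1 per 100 kb, and Prox1os (chr1:190170296-190217276, plus strand) 13, or 29 per 100 kb. These genes overlap at their 5′ ends. Their 24 peaks had −log10 p from 7.04 to 27.1, with a median of 15.5, and were 248 to 3644 bp wide. The strongest lay in Prox1os at 34 kb from the nearest TSS (27.1, rank 23 among all intronic liver-only peaks), in intron 4 of Prox1 at 20.8 kb (26.1, rank 46) and in Prox1os at 10.3 kb (25.2, rank 85, the DR1 window above). Of the 11 in Prox1, 9 lay in intron 5. The MEF list had 0 peaks in either gene, and the nearest MEF peak was 150197 bp from any of the 24. At least 1 of the 7 motifs was found at 9 of the 24 and a half-site at 3. Over all intronic liver-only peaks the shares were 39.6% and 18%, and with only 24 peaks here a difference was not tested.

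The gene lists were drawn from known liver functions and from other cell types. Their counts are read against 27.2% of all protein-coding genes with an intronic liver-only peak, 23.7% with a MEF-only intronic peak, and pooled densities of 2.32 and 1.11 per 100 kb. Of 32 hepatocyte transcription factor genes with intron space, 28 (87.5%) held 389 peaks, at 11 per 100 kb, and 7 (21.9%) held a MEF-only peak. Rora, Nfia, Zbtb20 and Thrb held the most. Lists of long genes collect more peaks. The median intron space was 42.7 kb in this list and 14.2 kb over all genes.

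Lipid and bile acid genes were as densely occupied. Of 29 genes of lipoprotein assembly and cholesterol, 19 (65.5%) held 114 peaks, at 16.7 per 100 kb. Abca1, which exports cholesterol to HDL, held 33, and Lipc, the hepatic lipase, 28. Scarb1, the HDL receptor, held 9 and Lrp1 7. Of 31 genes of fatty acid oxidation and ketogenesis, 23 (74.2%) held 119, at 17.8 per 100 kb, against 2 genes with a MEF-only peak. Ppara, the receptor that drives this pathway, held 25 at 41.2 per 100 kb. Acsl1, which activates long-chain fatty acids, held 13, and Acot12 held 9. Of 23 bile acid genes, 19 (82.6%) held 95, at 10.9 per 100 kb. The canalicular lipid flippase Atp8b1 held 17, the exporter Abcc2 13, the phosphatidylcholine transporter Abcb4 10 and the hydroxylase Cyp7b1 10.

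Glucose and amino acid genes followed the same pattern. Of 30 genes of glucose production and sensing, 24 (80.0%) held 147, at 15.7 per 100 kb. Insr, the insulin receptor, held 27, Pcx, pyruvate carboxylase, 23, Igf1 12 and Foxo1, the insulin-regulated activator of gluconeogenesis, 11. Of 35 genes of amino acid and urea metabolism, 27 (77.1%) held 105, at 11.4 per 100 kb. The mitochondrial carriers Slc25a13 and Slc25a15 held 16 and 9, and Mat1a, which makes S-adenosylmethionine, held 7.

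Secreted proteins and drug metabolism were occupied too. Of 27 plasma protein genes, 16 (59.3%) held 67, at 18.4 per 100 kb, the highest pooled density of the 19 lists. Serpina1b, an alpha-1 antitrypsin, held 16, in a model with 84.3 kb of intron space that spans 1 other protein-coding gene. Gc, the vitamin D binding protein, held 10, Cp, ceruloplasmin, 8 and Pon1 5. Of 32 complement and coagulation genes, 26 (81.2%) held 75, with 8 in C8a and 7 each in Masp1, F5 and Cfi. Of 33 cytochrome P450 and drug metabolism genes, 25 (75.8%) held 84, at 12.0 per 100 kb. Ugt1a6a, in the shared intron named above, held 14, Por, the reductase that serves microsomal P450 enzymes, 13, Ephx1 9 and Aox1 6.

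Clock and Wnt genes had lower densities. Of 23 clock genes, 15 (65.2%) held 112, at 7.44 per 100 kb, with 50 in Rora, 12 in Hlf and 10 each in Per2 and Npas2. Of 25 Wnt and zonation genes, 16 (64%) held 128, at 8.25 per 100 kb, and 14 (56.0%) held a MEF-only peak. Lgr4, the R-spondin receptor, held 24, Tcf7l2, the partner of beta-catenin, 23, Znrf3, which removes Wnt receptors, 17, and Lrp6 13. Of 20 subunits of NuRD and histone deacetylase complexes, 10 (50.0%) held 41, with 6 in Gatad2a, 5 in Mta1 and 4 in Rbbp4.

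Lists of fibroblast, skeletal muscle, cardiac and neuronal genes had lower densities than the 2.32 per 100 kb of all protein-coding genes. Of 24 fibroblast genes, 3 (12.5%) held 11 intronic liver-only peaks, at 1.00 per 100 kb, while 13 (54.2%) held 34 MEF-only peaks, at 3.10 per 100 kb. Those 3 were Zeb1 (6), Fn1 (4), which hepatocytes also express, and Snai2 (1), and Col3a1 held none. For skeletal muscle the count was 4 of 24 (16.7%; Mef2d and Mef2a 3 each, Pax7 2, Pax3 1). For cardiac genes it was 5 of 24 (20.8%), with 11 of 19 peaks in Gata4, a factor of early liver as well. Kcnq1 held 5, and Gata6 and Nkx2-5 1 each. Neuronal genes had 8 of 22 (36.4%), but at 0.443 per 100 kb, with a median intron space of 180 kb per gene, and Syt1 held 11, Ntrk2 10, Rbfox1 7 and Rbfox3 5.

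In peaks per 100 kb, the adipocyte, endothelial and biliary lists lay between the other cell types above and the lists of hepatocyte function. The adipocyte and endothelial densities were near the 2.32 per 100 kb of all protein-coding genes. MEF-only intronic peaks were held by 31.8% of adipocyte, 45.5% of endothelial and 31.8% of biliary genes, against 23.7% of all. Adipocyte genes had 10 of 22 (45.5%), at 2.66 per 100 kb, led by Pparg (10), the triglyceride synthase Dgat2 (9), the fatty acid transporter Cd36 (6) and Prdm16 (5). Endothelial and lymphatic genes had 10 of 22 (45.5%), at 2.71 per 100 kb, led by Nrp1 (16), the sinusoidal receptor Stab2 (10), Nrp2 (9) and Pecam1 (5). Biliary genes had 8 of 22 (36.4%), at 4.82 per 100 kb, among them Notch2 (24), Cdh1 (13) and Itga2 (5). Stab2 and Pecam1 belong to endothelial cells, and whether nuclei of such cells entered the liver samples was not tested.

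**Figure D5:**
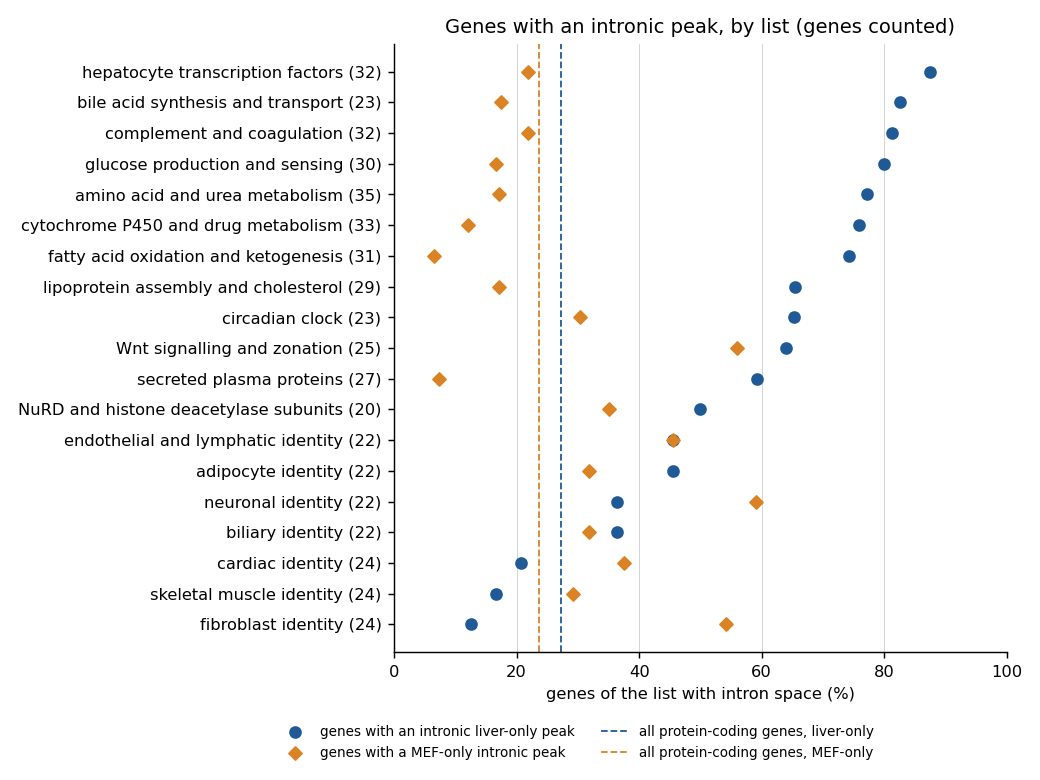
Share of the genes with intron space (horizontal axis, %) that hold an intronic liver-only peak (circles) or a MEF-only intronic peak (diamonds) in 19 lists, with the number of genes in brackets and the shares of all protein-coding genes as dashed lines (27.2% and 23.7%). Lists of hepatocyte function lie from 59.3% to 87.5% for liver-only peaks, and fibroblast genes lie at 12.5% against 54.2% for MEF-only peaks.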

How the data were processed

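CUT&RUN fragments were read by the authors as paired reads of 40 bases and trimmed with Trim Galore 0.6.6. They were aligned with Bowtie2 2.4.2 to mm10 (mouse) or hg38 (human). The authors called peaks with Genrich 0.6.1 as a single list over the replicates of a group. Duplicates, chrM and reads below a mapping-quality limit were removed, and the q-value limit was lenient. The paper's final peak sets kept peaks with a PROX1 motif, and whether the lists used here were filtered in that way was not tested. How IgG entered the lists is not given in the sources used here. Each deposited peak carries a score, capped at 1000, a signal (area under the significance curve), the −log10 p of its summit and a summit offset, none scaled between lists by the authors. The score was not used, since 99.9% of the intronic liver-only peaks sat at the cap.

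Peaks were placed with GENCODE M21 on the GRCm38.p6 RefSeq genome (Python 3.11.15, SciPy 1.17.1). Sequence windows were not printed from chromosome 18 or for summits whose 32 bases recur in the genome. The members, gene lists and tests were chosen with earlier results of these data known. Motif windows spanned 50 bp on each side of the summit. Shares were compared by Fisher's exact test (two-sided, Woolf intervals), and 7-mers within 25 bp with exact binomial tests, with Benjamini-Hochberg adjustment over 28 motifs or all 7-mers. All were tested on simulated data. Named were the 10 strongest peaks, the 10 protein-coding genes with most peaks, the 10 densest with at least 4, the 4 leading genes of each list, and peaks next to each limit. Some genes of the lists are not reported here. Other genes were named after their values were seen. C5, Tf and Bmal1 of the lists were not matched in M21.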

Additional observations from a re-analysis of the deposited data

How the results depend on the processing

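Of 94 values recomputed under other settings, 80 kept their direction and their side of the threshold or stayed within the margin set for them. The half-site odds ratio against control windows ranged from 2.87 to 3.87 over 14 settings, and the number of panel motifs more frequent at summits from 24 to 28. The half-site against intergenic peaks became significant with windows of 100 bp on each side (0.934, exact adjusted p = 0.0212). The odds ratio of the PROX1 consensus was 1.21 at up to 1 mismatch, no longer significant (exact p = 0.0675). Peaks above the median −log10 p of the liver list numbered 11455, since fewer peaks entered. Counting 6-mers, of which fewer exist, gave 614 more frequent and 589 less frequent. The share of liver peaks in the class was 46.3% with a TSS limit of 500 bp, 38.8% with 2000 bp, 46.4% with TSSs of protein-coding transcripts alone, 40.2% with protein-coding genes alone, 43.2% without peaks within 200 bp of a MEF peak, 44.3% when overlap began at 50% of the shorter peak, and 45.7% among peaks above the median −log10 p. The first-intron share was 25.7% with a TSS limit of 2000 bp and 26% without gene models that span at least 5 other protein-coding genes. Settings on repeats, GC content, equal control widths and such gene models were chosen after seeing the data. No paired analysis was possible because each list pools the replicates of its group, and for the same reason no replicate could be left out. Depth per sample is unknown.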

Other observations

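The word TTGGCA, letters of the site that NFI factors read, was chosen after its values were seen. It lay within 50 bp of 13.1% of the intronic liver-only summits, of 13.7% of intergenic liver-only summits, of 8.01% of MEF-only intronic summits and in 4.76% of control windows. Nfia, with 46 peaks, and Nfib, with 27 in its intron 4, were among the hosts with most peaks in one intron. The MEF-only intronic summits held few of the hepatocyte-factor motifs. The half-site stood at 7.20% (95% Wilson interval 6.73 to 7.71), HNF4 at 0.111% and HNF1 at 0.212%, next to 18%, 1.49% and 2.42% at the intronic liver-only summits. AP-1 sites, of the FOS and JUN family, stood at 14.4% and TEAD sites at 11.7%, next to 4.06% and 5.26%, and the CTCF core at 5.18% next to 0.993%. These shares come from lists made with different antibodies and were not tested against each other.

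Chromosome X held 261 intronic liver-only peaks, or 5.81 per Mb of intron space, while autosomes ran from 16.8 per Mb (chromosome 1) to 34.5 per Mb (chromosome 19). MEF-only intronic peaks were sparse there as well, at 0.69 per Mb. Pgrmc1, with 4 peaks in 5.42 kb, was the X-linked gene among the 10 densest.

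Hep3B peaks lie on the human genome and were compared by gene symbol alone. Of 14603 mouse genes with intron space and a human protein-coding gene of the same symbol (GENCODE 44), 4675 held an intronic liver-only peak in mouse. An intronic Hep3B peak was found in 16.9% of these and in 5.58% of the other 9928. Longer genes collect more peaks in both species. In genes with 30 to 100 kb of mouse intron space the shares were 15.8% and 8.70%, and over 100 kb they were 33.4% and 18.5%. Equal symbols do not place a peak at the matching site.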
